A study of Mus musculus with 12 samples.

Results

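Molecular chaperones and co-chaperones were followed in 3 tissues (liver, cortex and cerebellum) from 1 mouse, an adult of strain NMR-1, on MG_U74Av2 arrays, which measure a transcript with a probe set, a group of short oligonucleotides. They were taken as every probe set that carries a single gene symbol of the heat shock protein (Hsp), DnaJ, Cct and Tcp1, Fkbp, Pdia, Calr and Canx series in the platform annotation. This gave 99 probe sets for 72 genes, of 12422 probe sets measured. RNA of each tissue was run on 1 array after the standard protocol (1X: 5 µg of RNA and 1 linear amplification) and on 3 technical replicates after a procedure for small samples (3X: 1 ng of RNA and 3 linear amplifications), 12 arrays in 6 groups. The amount of RNA, the kit and the amplifications all changed between 1X and 3X, so none of them was tested alone. Because all RNA came from 1 animal, the p-values below measure only the spread between arrays.

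Chaperones help proteins fold and keep them from clumping. In the cytosol, HSP70 proteins bind short hydrophobic stretches of unfolded chains in a cycle driven by ATP: J-domain proteins deliver the client and start hydrolysis, and nucleotide exchange factors of the HSP110 kind release it, after which HSP90 or the ring-shaped CCT complex may take over. Mitochondria and the endoplasmic reticulum (ER) hold sets of their own, and the ER set also includes protein disulfide isomerases (PDI) and the lectins calnexin and calreticulin, which serve secreted glycoproteins. Hepatocytes secrete most plasma proteins, and neurons rely on cytosolic HSP70 for recycling the clathrin coats of synaptic vesicles.

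By family, the members were 37 J-domain probe sets (27 genes), 15 HSP70 (11), 14 CCT (9), 11 FKBP (10), 9 PDI and lectin (6), 6 small HSP (4), 3 HSP90 (2), 3 mitochondrial chaperonin (2) and the HSP70 nucleotide exchange factor Hspbp1. Families were read from the gene symbol alone, so that Hspb11 counts as a small HSP only by its name. By the usual location of the protein, 25 probe sets belonged to the ER, 8 to mitochondria and 66 to the cytosol, the nucleus or another place. On the mean of the 12 arrays, 66 of the 99 lay above the median of all signals. Values are log2 signals that the authors made with RMA, a method which corrects background and brings the arrays to one distribution. They give no detection call, so a low signal may be background, and levels of different probe sets are not compared.

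Marker genes were checked against the tissue labels. The mean of 9 measured hepatocyte markers was 10.13 in liver at 1X and 8.41 to 9.33 at 3X, against at most 4.37 on a brain array. For 8 measured neuron markers it was 7.26 to 7.39 in brain at 1X and 5.66 to 6.21 at 3X, against 3.91 to 4.60 in liver. For 8 measured kidney markers it was 5.25 in cerebellum at 1X, against 3.56 in cortex and 4.28 in liver. At 3X it was 4.92 to 5.08, 3.71 to 3.81 and 4.41 to 4.54 in the same order. The liver means were raised by Fbp1, at 11.11 in liver at 1X against 4.03 in cortex and 6.20 in cerebellum. Slc22a6 was not raised in cerebellum, at 3.17 against 3.22 in cortex at 1X. Cerebellum enters every brain mean below, and the part of these kidney transcripts in the liver differences was not tested. Liver replicate 3 stood apart among the 3X livers. Across the 99 members, which are not independent replicates, its Pearson r with the other livers was 0.949 and 0.955, against 0.988 between those, and its r with the 1X liver was 0.896 against 0.862 and 0.846. Its r with the 6 brain arrays at 3X was 0.954 to 0.961, where liver replicates 1 and 2 had 0.898 to 0.946. Over all probe sets this order did not hold: r with the brain arrays was 0.903 to 0.914 for replicate 3. It was 0.911 to 0.930 for replicates 1 and 2. Over the 3 replicates, a member's standard deviation (SD) had a median of 0.170 in liver, which was above cortex at 0.120 and cerebellum at 0.119.

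Liver was first set against the mean of both brain regions at 3X, with 3 liver and 6 brain arrays. Among cytosolic chaperones, Hspa8 was lower in liver by 2.66-fold, Hsp90aa1 by 2.87-fold with 1 of its 2 probe sets and Dnajc7 by 2.06-fold. Hspa1l and Hspbp1 were higher, as were 5 ER probe sets and a mitochondrial chaperonin probe set, none by over 2-fold. Tests were made with limma over all 12422 probe sets, and a probe set was called at a Benjamini-Hochberg adjusted p under 0.05. Of the 99 members 23 were called, or 23.2%, against 20.4 percent of all probe sets, so that chaperones were called at about the rate of the array as a whole. They were 9 higher in liver (8.17 percent of all probe sets) and 14 lower (12.3 percent of all). The member median was -0.00 on the log2 scale, against 0.01 over all probe sets. Of the 23, 19 also had no overlap between the liver and brain arrays (17.1 percent of all). The 8 members that differed by at least 2-fold were all lower in liver (5.46 percent of all probe sets passed this in either direction). In bulk tissue, fewer cells of a type and less RNA per cell cannot be told apart.

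The calls were then counted by the place of the protein, without a test of the places against each other. Of the 66 probe sets of the cytosol, nucleus or other places, 3 were higher and 14 lower in liver (8.17 and 12.3 percent of all probe sets). Of the 25 ER probe sets, 5 were higher and 0 lower by limma, with 6 higher and 1 lower at an unadjusted p under 0.05. The 5 are 20% of the 25, against 20.4 percent of all probe sets called in either direction. With all 12 arrays in an additive fit, 6 were higher and 1 lower. Of the 8 mitochondrial ones, 1 was higher. Without liver replicate 3 the counts were 6 higher and 17 lower for the cytosol and 3 higher and 1 lower for the ER. Without cortex replicate 2, cortex replicate 3 or cerebellum replicate 3, the ER count was 3 in each case. The hepatocyte and neuron marker means above move with this comparison, and their part in it was not tested.

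Hspa8 encodes the constitutive cytosolic HSP70, which strips clathrin from vesicles. At 3X its log2 signal was 7.20, 7.17 and 8.13 in liver, 9.03, 8.36 and 9.16 in cortex, and 8.70, 9.11 and 9.10 in cerebellum. All 3 livers lay below all 6 brain arrays, although replicate 3 came close. The difference was -1.41 (standard error, SE, 0.24), which is 2.66-fold lower in liver (limma adjusted p = 0.0015). At 1X the single arrays gave 10.22 in liver, 11.46 in cortex and 11.70 in cerebellum, a difference of -1.36.

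Hsph1 is an HSP110 protein that speeds nucleotide exchange on HSP70. Its 3X signals were 2.71, 2.71 and 3.11 in liver, 5.03, 4.33 and 4.97 in cortex, and 4.27, 4.58 and 4.66 in cerebellum. The groups did not overlap, and the difference was -1.80 (SE 0.17, limma adjusted p = 2.18e-05). At 1X it read 3.59 in liver against 6.24 and 5.66 in the brain regions. The liver values at 3X lay below the array median, so no fold is given.

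Hspa4, a second HSP110 protein, was measured with 5 probe sets that differed. The probe set 96594_at read 5.33, 5.28 and 7.56 in liver at 3X, 8.19, 7.85 and 8.60 in cortex, and 7.74, 7.75 and 8.29 in cerebellum. Liver replicate 3 lay far above the other livers and just under the lowest brain array. The difference was -2.01 (SE 0.44, limma adjusted p = 0.00773). None of the other 4 Hspa4 probe sets was called, and their differences ran from -0.18 to 0.31.

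Hsp90aa1, the stress-responsive cytosolic HSP90, read 4.50, 4.60 and 5.13 in liver at 3X with probe set 95282_at. The brain arrays read 6.07 to 6.45. Every liver array lay clear of the brain arrays, and the difference was -1.52 (SE 0.14), or 2.87-fold lower in liver (limma adjusted p = 1.69e-05). A further Hsp90aa1 probe set with less specific probes (161869_i_at) read 2.46 to 2.72 on all 3X arrays and was not called.

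Of the 27 J-domain probe sets outside the ER, 6 were lower in liver (22.2%, against 12.3 percent of all probe sets) and 0 higher by limma, with 8 lower and 1 higher at an unadjusted p under 0.05. The other 21 were not called, and the median of the 27 was -0.07. Dnaja1, a general HSP70 partner of the cytosol, read 5.30, 4.99 and 6.06 in liver against 6.11 to 6.49 in brain, a difference of -0.89 (SE 0.19, limma adjusted p = 0.00764). Dnajc7, which holds repeats that bind both HSP70 and HSP90, read 5.56, 5.46 and 5.40 in liver against 6.25 to 6.80 in brain, a difference of -1.04 (SE 0.09, limma adjusted p = 9.26e-06). For Dnajc7 the liver arrays lay close together, replicate 3 included.

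Dnajc5 is the cysteine string protein of synaptic vesicles. It read 3.40, 3.28 and 3.24 in liver at 3X and 3.80 to 4.16 in brain, with no overlap. The difference was -0.69 (SE 0.09, limma adjusted p = 0.000233), at liver signals that lay below the array median and may be background. The 1X arrays differed less, by -0.26. Dnajc13, an endosomal J-domain protein, differed by -0.44 (SE 0.10) and was not called without liver replicate 1 (limma adjusted p = 0.0553). Dnajc2, which acts at the ribosome, differed by -0.54 (SE 0.14) with probe set 101890_f_at, whose liver and brain arrays overlapped. Its other probe set differed by -0.12 and was not called. The Dnajc2 call was not followed through the alternative runs.

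Dnajc8, a J-domain protein found with the splicing machinery, had the largest difference among the members. Its probe set 95699_f_at read 5.76, 6.01 and 7.0 in liver at 3X and 8.49 to 9.32 in brain, a difference of -2.57 (SE 0.24, limma adjusted p = 2.41e-05). The suffix _f marks probes that also match related transcripts. A less specific second Dnajc8 probe set, 95700_r_at, differed by -0.12 and was not called, so the value for Dnajc8 rests on a single probe set.

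Among the immunophilins of the FKBP family, which turn proline bonds and bind the drug FK506, 3 of 11 probe sets were called. All were lower in liver (27.3%, against 12.3 percent of all probe sets). Fkbp3, a nuclear protein, read 6.61, 6.69 and 7.63 in liver at 3X, 8.42 to 8.98 in cortex and 8.51 to 8.99 in cerebellum. All livers lay below the brain arrays, and the difference was -1.73 (SE 0.22, limma adjusted p = 0.00024). Fkbp1a and Fkbp1b, small cytosolic proteins that bind calcium release channels, differed by -0.43 (SE 0.10) and -0.31 (SE 0.07) at 3X. For Fkbp1a the liver and cerebellum arrays overlapped at 3X.

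**Figure D1:**
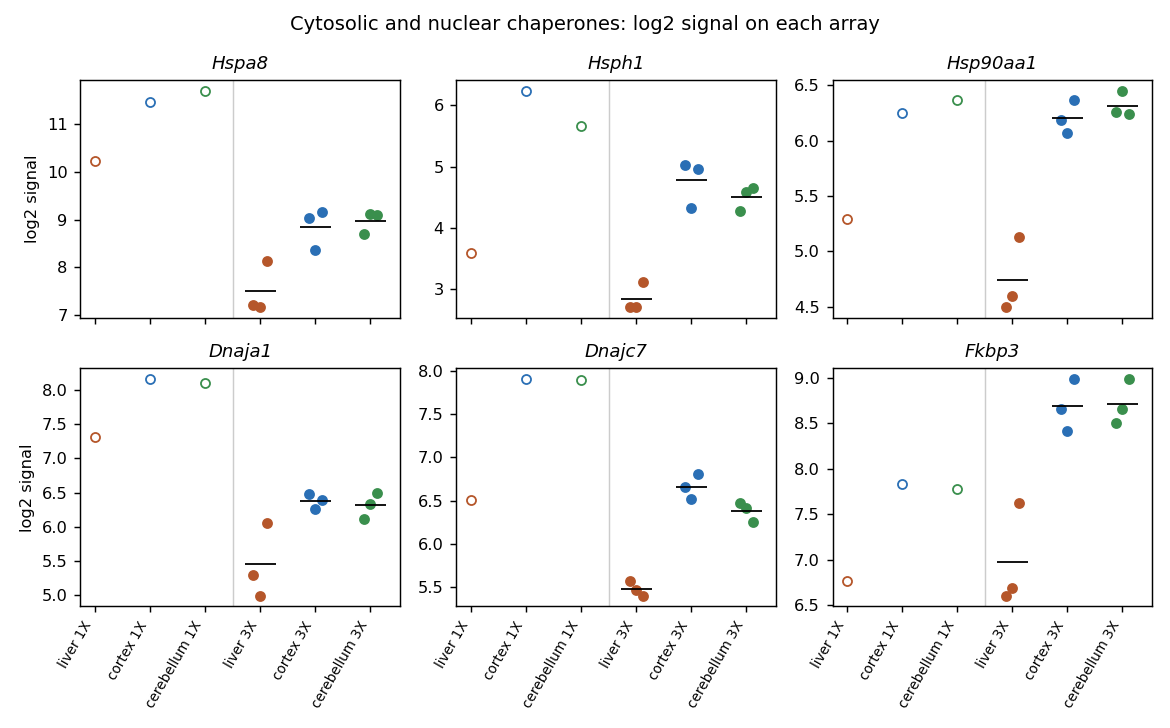
Log2 signal of 6 cytosolic and nuclear chaperone genes (vertical axis, a scale of its own for each gene) on each of the 12 arrays, by tissue and procedure (horizontal axis). Open circles are the single 1X arrays, filled circles the 3 arrays at 3X and bars their means. In each panel the liver lies below both brain regions at 1X and at 3X, and the highest 3X liver of Hspa8, 8.13, is replicate 3.

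The CCT ring, which folds actin and tubulin, had 1 of 14 probe sets higher in liver and 1 lower (8.17 and 12.3 percent of all probe sets). Cct7, a subunit of the ring, read 1.88, 1.92 and 2.84 in liver at 3X against 2.95 to 3.59 in brain, a difference of -1.03 (SE 0.20, limma adjusted p = 0.00389), at signals below the array median in liver. Cct6a was higher by 0.43 (SE 0.12, limma adjusted p = 0.0285) with the probe set 160459_r_at, whose arrays overlapped, and lost this call without liver replicate 1, cortex replicate 2 or cortex replicate 3 and in an additive fit of all 12 arrays (adjusted p = 0.0525 to 0.125). The other 12 differed by -0.30 to 0.17 and were not called.

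The stress-inducible HSP70 genes Hspa1a and Hspa1b stood near the same level in all tissues. Hspa1a read 6.13 to 6.53 at 1X and 6.27 to 6.65 at 3X, and Hspa1b 3.80 to 4.29 and 3.52 to 3.98. Neither was called between liver and brain, between cortex and cerebellum, for the procedure over all tissues or for its dependence on tissue. The genes are near-identical copies, so the probes may read both. Hspa1l, a relative studied mostly in testis, was higher in liver by 0.34 (SE 0.08, limma adjusted p = 0.0134) at low signals of 2.72 to 2.97, a call lost without liver replicate 2 (adjusted p = 0.0655). Hspbp1, which opens the HSP70 nucleotide pocket, was higher by 0.47 (SE 0.08, limma adjusted p = 0.0014) with an _f probe set. None of the 6 small HSP probe sets (Hspb1, Hspb2, Hspb8 and Hspb11) was called between liver and brain by limma, and 1 passed an unadjusted p under 0.05.

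The ER differences between liver and brain were larger at 1X than at 3X for several genes. At 1X, where each tissue had a single array and differences are described without a test, 9 of 25 ER probe sets were at least 2-fold higher in liver (6.54 percent of all probe sets were). They stood for 8 genes, Hspa5, Hsp90b1, Pdia3, Pdia4, Pdia5, Pdia6, Dnajc3 and Fkbp11, and differed by 1.05 to 2.28. At 3X the same 9 differed by -0.01 to 0.57, and 3 of them were called. The 9 were picked by their difference on single 1X arrays, so a smaller difference at 3X is partly built in by the choice. How far all probe sets picked in this way shrank was not tested. Smaller gaps between liver and brain at 3X were not confined to the ER, as the hepatocyte and neuron marker means above also drew closer. The median over the 25 was 0.35 at 1X and 0.04 at 3X. The 10 cytosolic or nuclear probe sets at least 2-fold lower in liver at 1X (6.65 percent of all) were picked in the same way. They differed by -2.57 to -0.05 at 3X, and 8 of them were called. The 1X and 3X differences share no array. Across probe sets, which are not independent, their Pearson r was 0.643 in the 25 ER members, 0.690 in the other 74 and 0.790 over all probe sets.

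**Figure D2:**
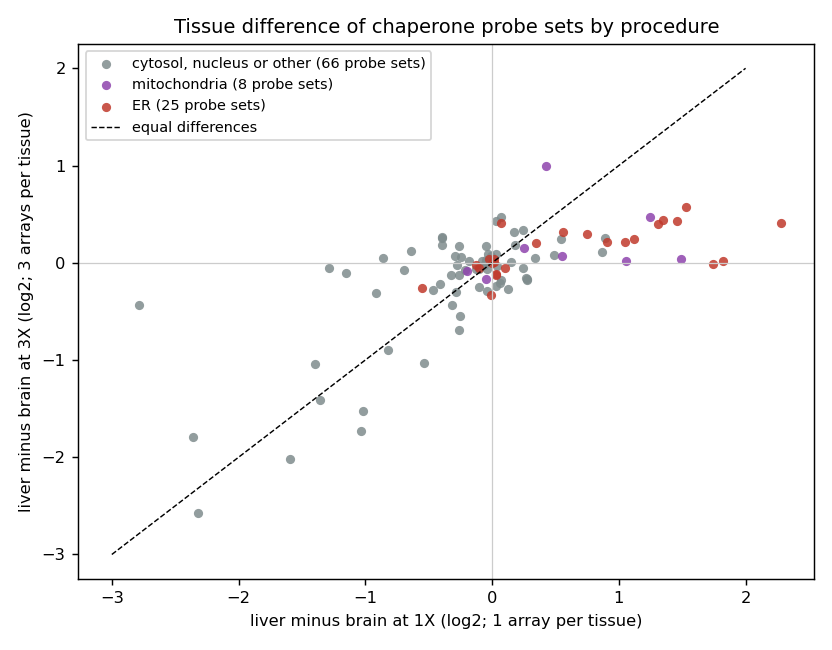
Liver minus the mean of both brain regions at 1X (horizontal axis, log2) against the same difference at 3X (vertical axis, log2), 1 point per chaperone probe set, coloured by location. ER points reach 2.28 on the 1X axis while their 3X differences stay at or under 0.57. Several of the 66 cytosolic or nuclear points lie near the line of equal differences, down to -2.57 at 3X. Others there are far smaller at 3X, such as Fkbp1a (-2.78 at 1X, -0.43 at 3X) and Hspa2 (-1.29 and -0.05).

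Hspa5 encodes BiP, the HSP70 of the ER. At 1X it read 10.29 in liver, 8.33 in cortex and 8.61 in cerebellum. At 3X it read 7.06, 6.56 and 7.59 in liver, 7.27, 6.97 and 6.95 in cortex, and 7.05, 7.18 and 6.91 in cerebellum. The liver arrays at 3X spread on both sides of the brain arrays, and the difference of 1.82 at 1X stood at 0.02 at 3X, where it was not called.

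Hsp90b1, the HSP90 of the ER, read 10.33 in liver, 8.94 in cortex and 9.03 in cerebellum at 1X. At 3X it read 6.85, 6.52 and 7.12 in liver, 6.73, 6.45 and 6.11 in cortex, and 7.16, 6.04 and 5.88 in cerebellum. The 3X groups overlapped, and the difference of 0.44 was not called.

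Pdia3 is the disulfide isomerase that works with calnexin and calreticulin on glycoproteins. It read 5.52 in liver, 3.81 in cortex and 3.74 in cerebellum at 1X, and 3.14 to 3.32 on all 9 arrays at 3X. Liver was thus apart from brain at 1X and level with it at 3X, where the difference was -0.01. All its 3X signals lay below the array median, so the equal readings may be background. Calreticulin (Calr) and calnexin (Canx), its partners, did not show the 1X difference: Calr read 7.09 in liver and 7.11 in both brain regions at 1X, and the 2 Canx probe sets differed by -0.13 and 0.02.

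The other disulfide isomerases kept a smaller liver excess at 3X. Pdia4 read 2.78, 2.65 and 2.50 in liver and 2.05 to 2.35 in brain, a difference of 0.43 (SE 0.09, limma adjusted p = 0.00638), against 1.46 at 1X. These 3X signals of Pdia4 lay below the array median. Pdia5 read 4.32, 4.37 and 4.81 in liver and 3.97 to 4.25 in brain, a difference of 0.40 (SE 0.11, limma adjusted p = 0.0224), against 1.31 at 1X. Both had no overlap between liver and brain. Without cortex replicate 3, Pdia5 was not called (adjusted p = 0.0508).

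Pdia6 had 3 probe sets. Probe set 94208_at was higher by 0.57 (SE 0.16, limma adjusted p = 0.0284) with overlapping arrays, a call lost without any 1 of liver replicates 1 and 3, cortex replicates 2 and 3 and cerebellum replicates 2 and 3 (adjusted p = 0.0504 to 0.125), and the other 2 differed by 0.30 and 0.41 without a call. At 1X the 3 differed by 1.53, 0.75 and 2.28. A pair of ER J-domain proteins that present clients to BiP were called. Dnajb11 was higher by 0.31 (SE 0.09, limma adjusted p = 0.0349). It lost this call without any 1 of liver replicates 2 and 3, cortex replicates 1 and 2 and cerebellum replicates 1 and 3 (adjusted p = 0.0606 to 0.106). Dnajc3 was higher by 0.41 (SE 0.10, limma adjusted p = 0.0123) with the _r probe set 102415_r_at, 1 of 4 for the gene. Dnajb9 and Dnajc10, other ER J-domain proteins, and Fkbp2, Fkbp7 and Fkbp9 of the ER were not called.

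Promoter sequence was looked at because several of these ER genes moved together. Genes induced when the ER is loaded often carry the ER stress response element, a CCAAT box followed by 9 bases of any kind and a CCACG box. Of the 72 member genes, 64 had an entry in the RefSeq promoter table of GRCm38.p6, which covers 250 bases before to 50 after the start. The element was found, on either strand, in 6 of 17 ER member genes with an entry (35.3%) and in 0 of 47 other members, against 29 of 17492 protein-coding genes of the table (0.166%). The element is known from genes of this kind, and the sequence is that of the reference. These shares are therefore background and no result of the arrays. The stretches below hold the match in 4 genes that were over 2-fold higher in liver at 1X (Hspa5, Hsp90b1, Pdia6 and Dnajc3) and in 2 that were not (Canx and Calr). Capitals mark the CCAAT and CCACG boxes or, where the match lies on the other strand, CGTGG and ATTGG. Hsp90b1 has both kinds. Each is written 5′ to 3′ on the strand of its gene.
Hspa5, chr2:34772005-34772063, plus strand: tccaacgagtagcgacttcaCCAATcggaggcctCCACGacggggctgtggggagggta
Hsp90b1, chr10:86705513-86705676, minus strand: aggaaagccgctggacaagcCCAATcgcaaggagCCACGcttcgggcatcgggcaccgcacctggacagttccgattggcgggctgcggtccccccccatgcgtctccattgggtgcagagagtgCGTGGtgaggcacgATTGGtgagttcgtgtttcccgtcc
Pdia6, chr12:17266471-17266529, plus strand: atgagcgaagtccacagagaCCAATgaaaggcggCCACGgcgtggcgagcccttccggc
Dnajc3, chr14:118937807-118937865, plus strand: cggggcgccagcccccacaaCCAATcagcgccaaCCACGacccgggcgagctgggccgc
Canx, chr11:50325780-50325838, minus strand: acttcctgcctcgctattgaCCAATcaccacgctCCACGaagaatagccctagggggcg
Calr, chr8:84847055-84847113, minus strand: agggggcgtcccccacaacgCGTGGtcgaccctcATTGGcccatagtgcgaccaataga
The stretches lie upstream of the annotated start of their genes. Members with the element therefore included genes with a large 1X tissue difference and genes without one. A match describes letters in this window and was not tested as a binding site.

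**Figure D3:**
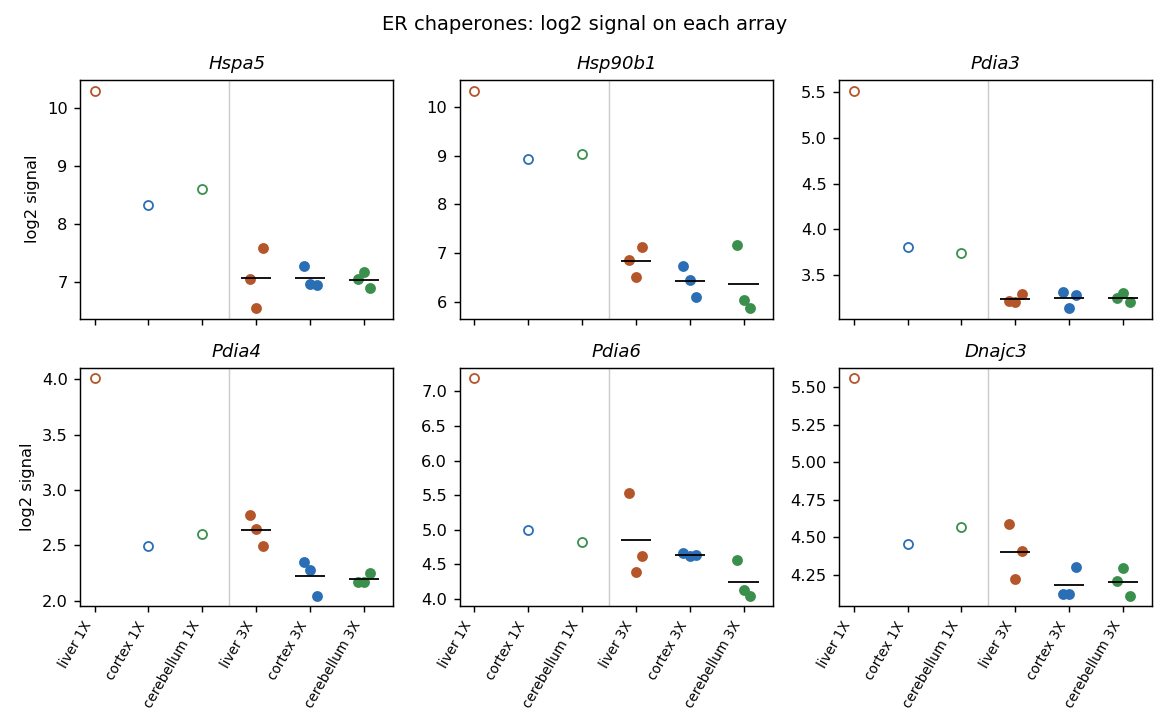
Log2 signal of 6 ER chaperone genes (vertical axis, a scale of its own for each gene; for a gene with several probe sets, the one with the largest 1X difference) on each of the 12 arrays, by tissue and procedure. Open circles are the single 1X arrays, filled circles the 3 arrays at 3X and bars their means. The 1X liver is the highest array in each panel, as for Hspa5 at 10.29, and the 3X groups lie close together or overlap except for Pdia4.

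Mitochondrial chaperones also had a liver excess at 1X. Hspd1 and Hspe1, the large and small ring of the mitochondrial chaperonin, and Hspa9, the mitochondrial HSP70, were higher in liver at 1X by 1.24, 1.06 and 1.49. At 3X these 3 probe sets differed by 0.47, 0.02 and 0.04 and none was called. They were the mitochondrial probe sets at least 2-fold higher in liver at 1X, so a smaller 3X difference is again partly built in. Hspa9 read 2.31 and 2.67 in liver replicates 1 and 2 but 5.29 in replicate 3, against 2.53 to 4.02 in brain, so that liver covered the whole range of the brain arrays. Hspe1 had the same shape, with 2.12 and 2.37 against 3.27 in replicate 3. The 3 Hspe1 livers and Hspa9 in liver replicates 1 and 2 lay below the array median at 3X and may be background. A second Hspd1 probe set with less specific probes, 161140_r_at, read 5.78, 5.73 and 5.20 in liver and 4.51 to 4.68 in brain, and was higher in liver by 1.00 (SE 0.12, limma adjusted p = 0.00015). There replicate 3 was the lowest liver.

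The genes Hspd1 and Hspe1 lie head to head and share the region between them. The heat shock element, searched on both strands as GAANNTTC followed by 2 bases of any kind and GAA, was found in 4 of the 64 member promoters (Hspd1, Hspe1, Dnajb6 and Hsph1), or 6.25%, against 104 of 17492 genes (0.595%). The windows of Hspd1 and Hspe1 overlap, so their match is shared. The 6.25% too describes reference sequence and is no result of the arrays. Capitals in the stretch below, from the minus strand, mark the blocks of the element, in which the matches overlap.
Hspd1, chr1:55088039-55088096, minus strand: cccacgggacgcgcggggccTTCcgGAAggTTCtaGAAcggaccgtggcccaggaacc
The 4 genes did not share a tissue pattern: Hsph1 was lower in liver, Hspd1 was higher by 1 of its 2 probe sets, and Dnajb6 and Hspe1 were not called.

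Cortex and cerebellum differed little in their chaperones at 3X. A single member was called, Fkbp4, against 1.06 percent of all probe sets. Fkbp4 carries steroid receptors together with HSP90. Its probe set 92808_f_at read 3.24, 3.63 and 3.61 in cortex and 4.24, 4.35 and 4.36 in cerebellum, a difference of -0.83 (SE 0.15, limma adjusted p = 0.0264). The same call was lost without any 1 of the 6 brain arrays, with adjusted p-values of 0.0527 to 0.129. The other Fkbp4 probe set, 92809_r_at, read 4.55 to 4.75 in cortex and 4.87 to 5.17 in cerebellum, a difference of -0.39 that was not called. At an unadjusted p under 0.05, 5 members passed by limma. The mean of 8 kidney markers was also higher in cerebellum (4.92 to 5.08 at 3X) than in cortex (3.71 to 3.81), and its part in the Fkbp4 difference was not tested.

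More chaperones were called for the procedure than between tissues, and falls outnumbered rises. The effect of 3X against 1X was fitted with limma over all 12 arrays with tissue as a term. Of the 99 members, 22 rose (22.2%, against 37.5 percent of all probe sets) and 34 fell (34.3%, against 19.5 percent of all). In all 56 were called, near the 56.9 percent of the array, but the balance was towards lower signals. Members lay above the median of all signals more often than not. In a fit of only the probe sets above it, 12 of 66 members rose and 26 fell. The share of all such probe sets by direction was not counted, and the part of signal level in this balance was not tested. The member median was -0.12, against 0.12 over all probe sets. Of the 23 members past 2-fold (8.44 percent of all), 20 fell and 3 rose. In the ER 3 rose and 10 fell of 25, among J-domain probe sets 9 and 15 of 37, among HSP70 1 and 5 of 15, and in CCT 5 and 5 of 14. All 3 small HSP calls were rises. The shift over all probe sets depends on the scaling, and was 0.135 with median centring and 0.0764 with quantile normalization.

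Central folding machines of the cytosol and the ER were among the members that fell furthest. Hsp90b1 fell by 2.89 (SE 0.27) on the log2 scale, or 7.43-fold, with signals of 8.94 to 10.33 at 1X and 5.88 to 7.16 at 3X (limma adjusted p = 1.45e-05). Hspa8 fell by 2.68 (SE 0.22), or 6.42-fold, with 10.22 to 11.70 at 1X and 7.17 to 9.16 at 3X (limma adjusted p = 4.56e-06). For both genes all 1X arrays lay above all 3X arrays. Hspa5 fell by 2.01 (SE 0.31), Hspa9 by 1.87 (SE 0.56) and Dnaja1 by 1.81 (SE 0.18). The call for Hspa9 was lost without the 1X liver array (adjusted p = 0.0820).

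Fkbp8, an anchored FKBP of the outer mitochondrial membrane, fell by 1.62 (SE 0.11), with 9.53 to 10.06 at 1X and 7.93 to 8.47 at 3X. Fkbp2 of the ER fell by 2.18 (SE 0.18), with 5.68 to 6.09 and 3.25 to 4.26. Dnajb6, which keeps aggregation-prone chains apart, fell by 2.19 (SE 0.17) with probe set 96120_at, with 4.79 to 5.75 and 2.92 to 3.50. The falls were thus found in proteins of different places and families. Calr and Canx, whose 3 probe sets moved by -0.12 to 0.10, were not called.

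**Figure D4:**
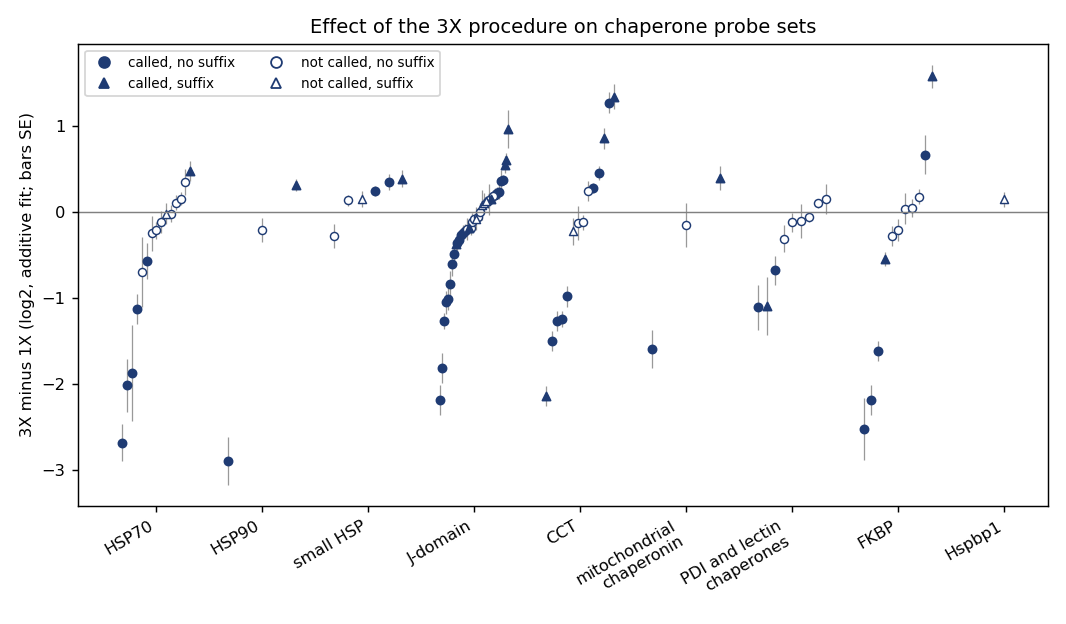
Effect of the procedure (vertical axis, 3X minus 1X on the log2 scale from the additive fit, bars SE) for the 99 chaperone probe sets, by family and sorted within it (horizontal axis). Filled symbols were called, and triangles have a suffix such as _f or _r that marks shared or less specific probes. Values run from -2.89 for Hsp90b1 to 1.57 for an Fkbp4 probe set, and 10 ER and 20 cytosolic or nuclear probe sets fell.

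The largest rises came from genes that also had a falling probe set. Of 20 genes with several probe sets, 6 had called probe sets in opposite directions (Cct3, Cct5, Fkbp4, Dnajc3, Dnajc8 and Hspd1), and in 10 of 20 the probe sets lay over 2-fold apart. Without the 1X liver array, Hspd1 was not called with 161140_r_at (adjusted p = 0.213). Cct3 rose by 1.34 (SE 0.15) with probe set 161238_f_at, with 2.46 to 2.60 at 1X and 3.55 to 4.38 at 3X. It fell by 2.14 (SE 0.12) with 98446_s_at, with 7.49 to 7.65 and 5.18 to 5.83. Cct5 rose by 1.27 (SE 0.13) with 161514_at and fell by 0.98 (SE 0.12) with 93295_at. Fkbp4 rose by 1.57 (SE 0.13) with 92808_f_at and fell by 0.55 (SE 0.08) with 92809_r_at. At 1X the rising probe sets read 1.92 to 2.21 for Cct5 and 1.69 to 2.69 for Fkbp4. The falling ones read 4.70 to 4.85 and 5.09 to 5.83. All 1X signals of the rising probe sets of Cct3, Cct5 and Fkbp4 lay below the array median and may be background. For these genes the direction of the measured procedure effect depended on the probe set.

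Rises were more frequent among probe sets with a suffix. Among the 24 members with a suffix 11 rose and 5 fell, and among the 75 without 11 rose and 29 fell. Over all probe sets, 48.1% of 2808 with a suffix rose and 9.94% fell, against 34.4% and 22.3% of 9614 without. Control probe sets along the actin transcript also moved with the procedure. The 3′ minus the 5′ signal of Actb was -0.93 to -0.52 at 1X and 0.89 to 3.09 at 3X, and for Gapdh it was -3.50 to -2.93 and -2.58 to -1.28. The place of a probe along its transcript and its part in the chaperone changes were not tested.

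The procedure effect differed between tissues for some members. This was asked with limma's F test for an interaction of tissue and procedure, which takes the spread of a single 1X array to be that of the 3X replicates. It called 12 of 99 members (12.1%, against 10.4 percent of all probe sets). They included 6 of the 25 ER probe sets, 4 of the 9 PDI and lectin probe sets and 0 of 14 CCT ones, of which 1 passed an unadjusted p under 0.05 by limma. The ER count of 6 was 3 with quantile normalization, and 3 without liver replicate 2 or any 1 of the 6 brain arrays at 3X. The member count of 12 was 7 without liver replicate 2, cortex replicate 1 or 3, or cerebellum replicate 1 or 2, and 18 without liver replicate 3.

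All 6 ER calls were larger falls in liver. They were among the 9 ER probe sets picked above by their 1X difference. The calls therefore restate, from the same arrays, that this difference was smaller at 3X. Pdia3 changed by -2.28 in liver, -0.56 in cortex and -0.49 in cerebellum (SE 0.11 each, F = 81.6, limma adjusted p = 6.48e-05). Hspa5 changed by -3.22, -1.26 and -1.56 in the same order (SE 0.30). Pdia4 changed by -1.37, -0.27 and -0.40, Pdia5 by -0.92, -0.01 and -0.01, Pdia6 by -2.34, -0.36 and -0.58 with 94209_g_at, and Dnajc3 by -1.16, -0.28 and -0.37 with 94343_at. The 3X signals of Pdia3 and Pdia4 lay below the array median and may be background.

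Among cytosolic members, Fkbp1a went the other way. It changed by -0.96 in liver, -3.67 in cortex and -2.95 in cerebellum (F = 80.9, limma adjusted p = 6.59e-05). Its 1X signals were 4.63 in liver, 7.99 in cortex and 6.84 in cerebellum, and its 3X signals 3.57 to 3.76, 4.16 to 4.51 and 3.75 to 4.02. The liver to brain gap of -2.78 at 1X became -0.43 at 3X. Hspa2, an HSP70 with roles in testis, changed by 0.25, -1.27 and -0.69 in liver, cortex and cerebellum. Hspa4l, also an HSP110 protein, changed by 0.45, -0.29 and -0.91. For Hspa8, Hsph1, Hsp90aa1, Dnaja1, Dnajc7 and Fkbp3 the interaction was not called.

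Chaperone-network genes outside the naming rule were listed as well. Of 72 such genes (prefoldins, cyclophilins, tubulin cofactors, HSP90 partners and others) 54 were measured, and 2 were higher and 13 lower in liver at 3X (8.17 and 12.3 percent of all probe sets). Ppid, a cyclophilin that binds HSP90, differed by -1.07 (SE 0.19, limma adjusted p = 0.00207), with signals of 2.80, 3.07 and 3.69 in liver and 3.89 to 4.51 in brain. Ppib, the cyclophilin of the ER, was higher by 1.21 (SE 0.12, limma adjusted p = 3.82e-05), with signals of 3.40, 3.53 and 3.97 against 2.32 to 2.69. The Ppib brain signals and the Ppid liver signals of 2.80 and 3.07 lay below the array median and may be background. With the procedure 16 of the 54 rose and 17 fell (37.5 and 19.5 percent of all probe sets). Txndc9, a partner of the CCT ring, rose by 2.49 and Pfdn2, a prefoldin subunit, fell by 2.06.

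Of 70 further genes of ER folding, quality control and the unfolded protein response, 57 were measured, and 10 were higher and 1 lower in liver at 3X, beside the same 8.17 and 12.3 percent. The total of 11 was 17 without liver replicate 3. Sec61a1, the channel through which secreted proteins enter the ER, was higher by 1.46 (SE 0.16, limma adjusted p = 6.76e-05), with signals of 9.14, 9.05 and 9.75 in liver and 7.62 to 8.10 in brain. Unlike Hspa5 and Pdia3, Sec61a1 thus kept a liver difference of over 2-fold at 3X, beside 2.07 at 1X. With the procedure 11 of the 57 rose and 26 fell, beside 37.5 and 19.5 percent, among them Ssr3, a subunit next to the channel, which fell by 2.63. Neither list had a call between cortex and cerebellum by limma, and 1 and 5 genes passed an unadjusted p under 0.05.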

How the data were processed

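Total RNA of 3 tissues of 1 mouse was hybridised to 12 arrays. The table the authors deposited holds 1 log2 value per probe set and array, which the submitters' processing notes credit to RMA. Its version and the number of runs are not stated there, and that the base is 2 was inferred from the range of the values. From them, differences were fitted with limma 3.58.1 in R 4.3.3 (lmFit, eBayes, two-sided) over 12422 probe sets, without control probe sets, with Benjamini-Hochberg adjustment and a threshold of 0.05. Tissues were compared in a fit of the 9 3X arrays, the procedure in an additive fit of all 12, and its dependence on tissue by an interaction F. No filter on low signals was set. Precision is limited by how few arrays a group holds. Names come from the platform annotation, 1 symbol per probe set. Named were up to 12 called members in each direction without overlap, the largest differences of each family, probe sets of a gene in opposite directions and the largest F. Marker and network lists held one probe set per gene, that with the highest mean. Members and lists were chosen with earlier results of these data known. Code was tested on simulated arrays. Alternatives were other scalings, filters, eBayes settings, sets of arrays, a replicate block, a mean per gene and leaving out arrays. No protein sequences were used here.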

Additional observations from a re-analysis of the deposited data

Results flagged for a closer look

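For 12 members the effect of the procedure, 3X minus 1X, differed between the tissues by the moderated F test of the interaction from limma, at a Benjamini-Hochberg adjusted p under 0.05 over all probe sets. The 6 ER probe sets among them were Pdia3 (F = 81.6), Pdia4 (F = 16.7), Hspa5 (F = 12.2), Dnajc3 by 94343_at (F = 10.3), Pdia6 by 94209_g_at (F = 9.56) and Pdia5 (F = 9.43), all of which fell most in liver. The other 6 were Fkbp1a (F = 80.9), Hspa2 (F = 31.6), Dnajb2 (F = 12.3), Hspa4l (F = 12.1), Fkbp1b (F = 10.2) and Dnajb1 (F = 9.75). Dnajb2, which binds ubiquitin as well as HSP70, changed by -0.40 in liver, -0.72 in cortex and -1.40 in cerebellum. Dnajb1, the main J-domain partner of inducible HSP70, changed by -0.54, -1.29 and -1.31 in the same order, and Fkbp1b by 0.45, -0.17 and -0.14. Each of these values rests on the single 1X array of a tissue. The 6 ER probe sets were among the 9 described above as at least 2-fold higher in liver at 1X.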

How the results depend on the processing

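The member counts for liver against brain and for the procedure stayed within 1.5 times of 23 and 56 under every alternative run, at 17 to 29 (17 of the 75 without a suffix) and 38 to 57. The 5 ER calls of liver against brain were 3 among probe sets above the median level, 3 to 5 with 1 array left out and 7 in an additive fit of all 12 arrays (6 higher, 1 lower). The single call between cortex and cerebellum was 0 without suffixed probe sets, 2 with only the 6 brain arrays, 0 to 1 with an array left out and 2 with the replicate block. The 132 calls over all probe sets in that comparison were 262 with only the 6 brain arrays. The interaction count of 12 ran from 7 to 18 with an array left out, and its 6 ER calls from 3 to 8 and to 3 with quantile normalization. Leaving out a 1X array could not be run for it. In these cases the cause was not tested. Uncalled cortex minus cerebellum values turned sign for Hsp90b1 (0.07, and -0.17 to 0.47 with a brain array left out) and Hspd1 by 93277_at (-0.08, and -0.19 to 0.053 with a brain array left out). Named members were not judged in a filter that drops their probe set, such as a suffix or a low level, nor in the mean per gene. Of the named members, 16 of 22 called between liver and brain kept their call and direction in every alternative that held them. For the procedure 25 of 33 kept it, and for the interaction 5 of 6. Those that lost it between liver and brain were Dnajb11, Pdia6, Pdia5, Cct6a, Hspa1l and Dnajc13, and for the procedure Hspd1 by 161140_r_at, Hspb2, Hspa9, Pdia6 by 94209_g_at, Pdia3, Dnajc3, Hsp90aa1 by 161869_i_at and Hspb11. The exception for the interaction was Pdia4, at an adjusted p of 0.0624 with quantile normalization by limma. Among the listed ER genes that are no members, 11 calls between liver and brain were 17 in an additive fit of all 12 arrays, and 37 for the procedure were 22 with tissues as units. Same-numbered replicates correlated in their deviations at -0.10 to 0.34, above 0.1 in 5 of 9 pairs, and 6 of 9 arrays correlated best with an array of their own number. The pairs of replicate 3 had the highest r of all pairs. It was 0.342 for liver and cortex, 0.297 for cortex and cerebellum and 0.294 for liver and cerebellum. Since not every pair was above 0.1, the numbers were not taken as pairs, and a deviation shared by the replicate 3 arrays was not tested. With the replicate block 28 members were called between liver and brain, with 7 in the ER (5 higher, 2 lower). Without liver replicate 3 the same count was 29.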
